A study of Mus musculus with 4 samples.

Results

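The genes described here are 10 that build or organise the junctions between epithelial cells: Epcam, Cdh1, Cldn3, Cldn4, Cldn7, Cldn23, Ocln, Tjp3, Esrp1 and Lad1. They were chosen by name, not by their values, and all 10 were found, with 13 probes, among 20637 genes named on the arrays. The arrays measured dendritic cells sorted by flow cytometry from the colonic lamina propria, the connective tissue below the gut epithelium, of C57BL/6J mice. The 4 groups, with 1 array each, were CD300a-deficient (KO) mice raised germ-free (GF, male), wild-type (WT) mice raised GF (male), KO mice raised under specific pathogen-free conditions (SPF, female) and WT mice raised SPF (female). CD300a is an inhibitory receptor of myeloid cells. Per the labels, cells of 5 mice were used for each condition, so that each array is 1 pool and no spread between mice was measured. The labels give no age, no description of the CD300a allele and no sort markers.

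No test between groups was possible with 1 array per group. Levels are log2 of the scanner's processed signal minus the array's 75th percentile, so that 0 is that percentile, and differences are on the same log2 scale. The error after each ± is the scanner software's own error of the signal, which covers the array and not the mice. A gene was called different where its difference reached 2-fold, and "above background" means that the scanner software marked its probe as well above background. Where only the brighter array was above background, the difference is given as a lower bound. Levels of different genes come from different probes and are not set against each other.

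Cd300a itself read 8.05 on the KO GF array, 7.60 on the WT GF array, 7.91 on the KO SPF array and 7.88 on the WT SPF array, and was thus not lower on the KO-labelled arrays. Where its probe lies relative to the deletion is not stated in the labels, so this probe checks nothing, and the arrays are called KO-labelled. Xist, transcribed from the inactive X chromosome, was above background on 1 of the 2 arrays labelled male, KO GF (3.62), and not on WT GF. The Y-linked Ddx3y read 0.59 on KO GF and 2.07 on WT GF, and was not above background on the SPF arrays. The 2 GF arrays thus differ in these transcripts as well as in labelled genotype, and the 2 cannot be told apart there. The GF arrays shared slide 2 and scan 2, the SPF arrays slide 1 and scan 1. Housing, slide, scan and labelled sex therefore cannot be told apart, while each genotype comparison lies within 1 slide. Between 13797 and 15055 of the 20637 named genes were above background on an array.

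Epithelial cells hold together through adherens junctions, in which E-cadherin binds its like on the next cell, and are sealed by tight junctions, in which claudins and occludin span the membrane and ZO proteins tie them to the actin skeleton. EpCAM is an adhesion molecule of the basolateral membrane that binds and stabilises claudin-7 in the intestine. Haematopoietic cells mostly lack these proteins, with exceptions: Langerhans cells, the dendritic cells of the epidermis, carry EpCAM and E-cadherin, and dendritic cells that sample the gut lumen have been described to make tight junction proteins.

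The promoters of 3 genes that the results turn on are printed here, since the transcripts were high and low on the same arrays: Epcam, and Cldn3 and Cldn4, which are neighbours in the genome with 0 annotated genes between them. The windows hold the 250 bases before the transcript start, from RefSeq on GRCm38.p6, written 5′ to 3′ on the gene's strand. They lie at chr17:87635729-87635978 (plus strand, Epcam), chr5:134985964-134986213 (plus strand, Cldn3) and chr5:134946935-134947184 (minus strand, Cldn4). Capitals mark the E-box CACCTG or its reverse complement CAGGTG, the letters that the SNAI and ZEB repressors of epithelial genes are known to bind.
Epcam: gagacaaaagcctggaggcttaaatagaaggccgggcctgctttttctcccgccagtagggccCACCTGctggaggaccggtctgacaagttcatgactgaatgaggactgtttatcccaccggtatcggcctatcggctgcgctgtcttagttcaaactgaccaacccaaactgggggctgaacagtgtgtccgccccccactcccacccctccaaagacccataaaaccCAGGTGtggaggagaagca
Cldn3: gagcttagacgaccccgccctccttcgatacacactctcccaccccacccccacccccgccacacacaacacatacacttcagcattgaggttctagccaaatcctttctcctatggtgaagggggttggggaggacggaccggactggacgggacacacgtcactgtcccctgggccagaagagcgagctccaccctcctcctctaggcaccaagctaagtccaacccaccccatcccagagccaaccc
Cldn4: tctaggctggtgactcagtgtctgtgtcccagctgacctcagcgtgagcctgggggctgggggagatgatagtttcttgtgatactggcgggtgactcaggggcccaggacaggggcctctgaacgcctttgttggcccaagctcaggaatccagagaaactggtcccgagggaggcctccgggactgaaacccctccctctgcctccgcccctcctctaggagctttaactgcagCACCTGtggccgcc
The Epcam window holds 2 such matches, the first base of each at -187 and -19 relative to the start, the Cldn4 window 1 at -14, and the Cldn3 window 0. A promoter was found for 7 of the 10 genes, in 10 windows, and 6 of these windows, of 5 genes, held the E-box on either strand, as did 17.2% of the 32841 promoter windows in the table. The letters AACCGGTT, bound by grainyhead-like (GRHL) factors of epithelium, were in the windows of 0 of the 7 genes and in 0.116% of all windows. The letters TTTATG on either strand, bound by the intestinal CDX factors, were in the Epcam window, where they do not overlap an E-box, and in 10.8% of all windows. Such matches describe the letters of these windows and are not shown binding sites.

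The 10 genes followed one pattern: all were highest in KO-labelled GF cells, next in WT GF cells, lower in KO-labelled SPF cells and lowest in WT SPF cells. For Cdh1 and Ocln the last step lies between values below background and is not measured. The same order was held by 9.38% of all named genes above background on any array. All 10 were above background on both GF arrays, 8 on the KO SPF array and 6 on the WT SPF array. Of the 10 genes, 6 were above background on all 4 arrays, 2 on 3 arrays and 2 on 2 arrays. In the order of levels, WT GF cells stood clear of KO-labelled SPF cells for every gene except Lad1, whose levels there were -0.91 ± 0.15 and -1.10 ± 0.15. The lowest step, KO-labelled over WT SPF cells, was within 2 scanner errors for 5 of the 8 genes measured there.

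**Figure D1:**
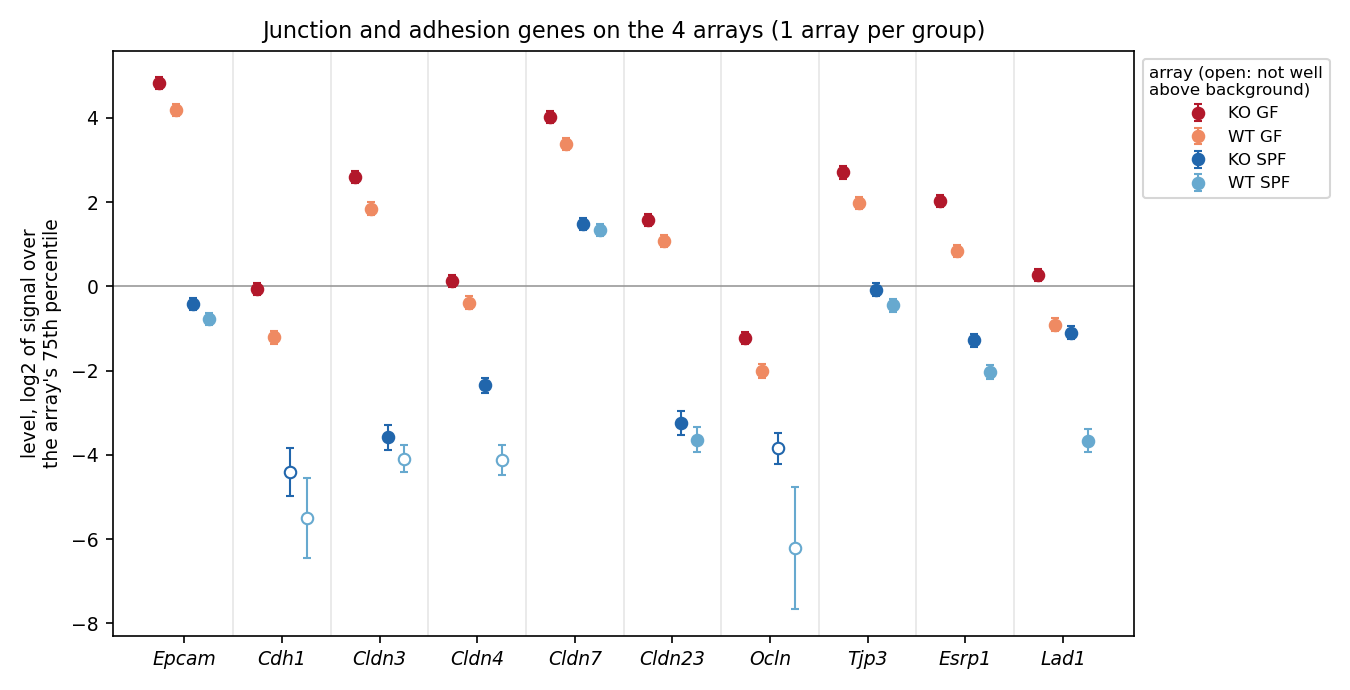
Level of each of the 10 junction and adhesion genes (horizontal axis) on the 4 arrays, as log2 of the processed signal over the array's 75th percentile (vertical axis); points stand for 1 array each, bars for the scanner software's error, and open points were not well above background. The GF arrays lie above the SPF arrays for each gene, as for Epcam at 4.82 and 4.18 against -0.42 and -0.77.

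Of the 2 adhesion molecules, Epcam had processed signals of 5813 in KO-labelled GF cells, 3438 in WT GF cells, 118 in KO-labelled SPF cells and 97.0 in WT SPF cells. Its log2 levels were 4.82, 4.18, -0.42 and -0.77 in that order, so that both GF arrays lay far above both SPF arrays while the genotypes lay close together. GF minus SPF, Epcam differed by 5.24 ± 0.21 in KO-labelled cells (37.7-fold) and by 4.95 ± 0.21 in WT cells (30.8-fold).

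Cdh1, which encodes E-cadherin, had levels of -0.06 in KO-labelled GF cells and -1.21 in WT GF cells. On the SPF arrays it was not above background, with measured values of -4.41 in KO-labelled and -5.51 in WT cells. The Cdh1 probe was spotted repeatedly, which gives the precision within an array: on the KO GF array its 10 spots had an SD of 0.05, and on the WT GF array its 9 unflagged spots had an SD of 0.13. All of those spots were above background, against 2 of 10 on the KO SPF array and 0 of 9 on the WT SPF array. Cdh1 was at least 14.0-fold higher in GF than SPF KO-labelled cells and at least 7.66-fold higher in GF than SPF WT cells.

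The 4 claudins, the membrane proteins that set which ions pass a tight junction, included the largest measured difference among the 10 genes with the main scaling. Cldn3 read 2.60 in KO-labelled GF cells, 1.85 in WT GF cells and -3.59 in KO-labelled SPF cells, and was not above background in WT SPF cells (measured value -4.09). Its GF minus SPF difference was 6.18 ± 0.33 in KO-labelled cells (72.7-fold) and, against that value below background, 5.93 ± 0.36 in WT cells (61.2-fold). With normexp correction the Cldn3 differences were 3.91 and 3.29 in KO-labelled and WT cells, below those of Epcam (4.52 and 4.19). Cldn23 read 1.58 and 1.08 in KO-labelled and WT GF cells, and -3.24 and -3.64 in KO-labelled and WT SPF cells. Like Epcam, it had a wide gap between housings in both genotypes, of 4.82 ± 0.32 in KO-labelled and 4.72 ± 0.33 in WT cells. Cldn7, the claudin that EpCAM binds, read 4.03 and 3.38 in KO-labelled and WT GF cells and stayed well above background in SPF cells, at 1.48 and 1.34 in KO-labelled and WT cells. Its GF minus SPF differences, 2.55 ± 0.20 and 2.04 ± 0.20 in KO-labelled and WT cells, were well below those of Epcam on the log2 scale. Cldn4 read 0.12, -0.39 and -2.35 on the KO GF, WT GF and KO SPF arrays and was not above background on the WT SPF array (measured value -4.12). Its difference between housings was 2.47 ± 0.24 in KO-labelled cells and, against that value below background, 3.73 ± 0.39 in WT cells (13.3-fold). The other Cldn4 probe was above background on the GF arrays only, so that the KO SPF value rests on 1 of 2 probes.

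The other tight junction genes were Ocln, which encodes occludin, and Tjp3, which encodes the scaffold protein ZO-3. Ocln read -1.23 in KO-labelled and -2.00 in WT GF cells and was not above background on either SPF array by either of its probes. By measured values it was 2.62 ± 0.41 higher in GF than SPF KO-labelled cells (6.15-fold), and it was at least 4.42-fold higher in GF than SPF WT cells. Tjp3 was above background on all arrays, at 2.70 and 1.97 in KO-labelled and WT GF cells and at -0.08 and -0.45 in KO-labelled and WT SPF cells. Its differences between housings were 2.78 ± 0.21 and 2.42 ± 0.21 in KO-labelled and WT cells.

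Esrp1 encodes a splicing regulator that keeps transcripts in their epithelial isoforms. It read 2.02 and 0.84 in KO-labelled and WT GF cells, and -1.28 and -2.03 in KO-labelled and WT SPF cells. GF minus SPF, it differed by 3.30 ± 0.21 and 2.86 ± 0.22 in KO-labelled and WT cells, and its other probe by 3.60 ± 0.23 and 2.66 ± 0.23. Lad1 encodes ladinin, an anchoring filament protein of basement membranes, and had levels in WT GF and KO-labelled SPF cells that lay close together. It read 0.27 and -0.91 in KO-labelled and WT GF cells, and -1.10 and -3.67 in KO-labelled and WT SPF cells. Its difference between housings was 1.37 ± 0.21 in KO-labelled cells and 2.76 ± 0.31 in WT cells.

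Between housings, all 10 genes were at least 2-fold higher in GF cells in both genotypes. Of all genes measured, 21.6% were at least 2-fold higher and 15.4% at least 2-fold lower in GF than SPF KO-labelled cells, and 17.5% were higher and 9.44% lower in GF than SPF WT cells. Both housing comparisons called 11.2% of genes higher. The median GF minus SPF difference of the 10 genes was 3.04 in KO-labelled cells, against 0.05 over all genes. In WT cells it was 3.97, against 0.13 over all genes, and 2.90 with the genes below background in SPF cells set at their bounds. By measured values, at least 8-fold higher in GF cells were 5 of the 10 in KO-labelled cells and 6 in WT cells, against 4.88% and 3.74% of all genes, and of the 6 the bounds of Cdh1 and Ocln lie under 8-fold. With normexp background correction and an offset of 50, the median in WT cells was 1.84, and 8 of the 10 were at least 2-fold higher in GF cells in each genotype.

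**Figure D2:**
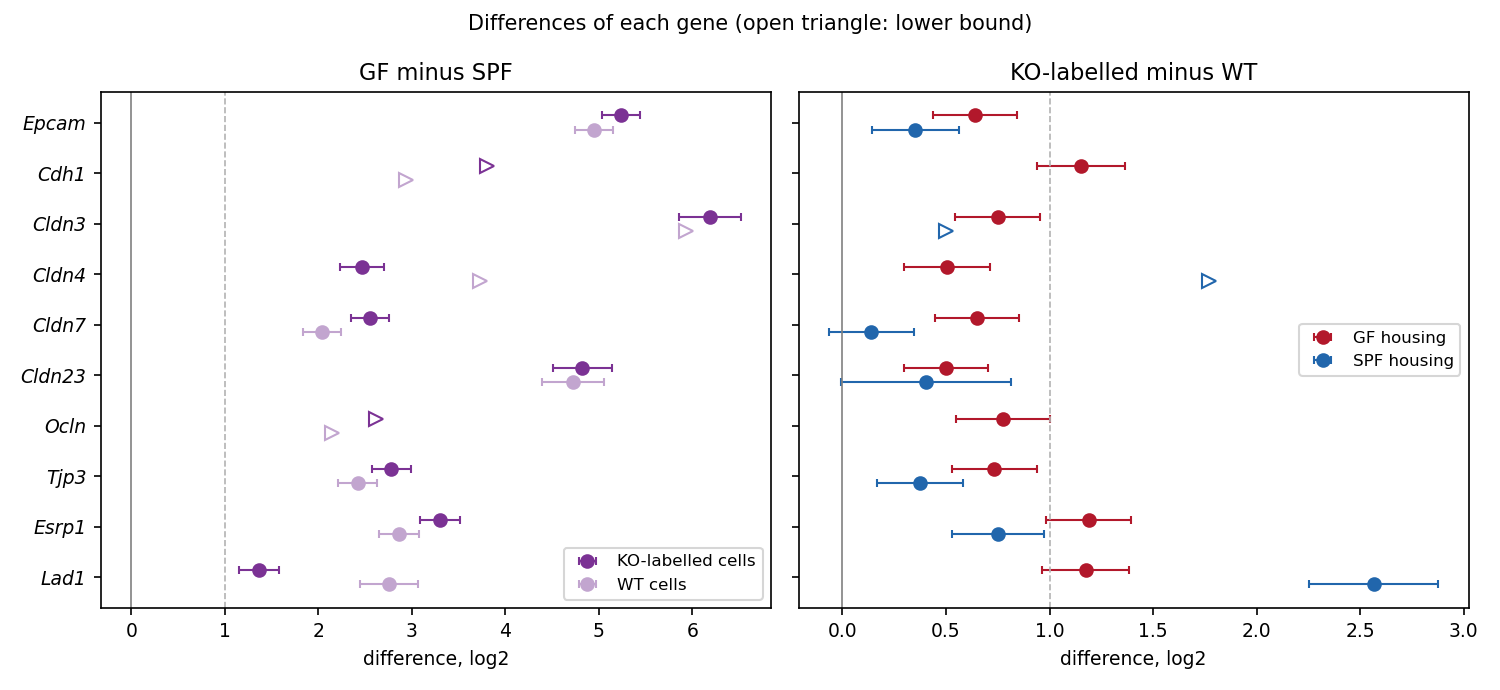
Differences of the 10 genes on the log2 scale (horizontal axes), GF minus SPF on the left for KO-labelled and WT cells and KO-labelled minus WT on the right under GF and SPF housing; bars are scanner errors, open triangles are lower bounds, in part equal to the measured difference, and dashed lines mark 2-fold. All housing differences lie beyond 2-fold, while the genotype differences lie above 0 and mostly within 2-fold.

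Between genotypes under GF housing, all 10 genes read higher in KO-labelled than WT cells, by 0.50 (Cldn23) to 1.19 (Esrp1), with errors of 0.20 to 0.23. The difference reached 2-fold for 3 of them, against 8.8% of all genes, and was at least 2-fold lower for 0, against 7.77% of all genes. Those 3 were Cdh1 (1.15 ± 0.21), Esrp1 (1.19 ± 0.20) and Lad1 (1.17 ± 0.21). Epcam differed by 0.64 ± 0.20, Cldn3 by 0.75 ± 0.20, Ocln by 0.78 ± 0.23, Tjp3 by 0.73 ± 0.20, Cldn7 by 0.65 ± 0.20 and Cldn4 by 0.51 ± 0.21. The other probes of Ocln and Cldn4 gave 0.80 ± 0.23 and 0.65 ± 0.23, and that of Esrp1 also passed 2-fold. The median over the 10 was 0.74, against -0.20 over all genes. The count moved with the scaling: it was 6 of 10 with quantile scaling and 6 of 10 with the deposited value table, in which the median of all genes lay at 0.08, and 1 of 10 with normexp correction. Relative to the median of all genes, the median of the 10 was 0.94 both with the main scaling and with the deposited table. These 2 differ by nearly 1 factor per array, so that the equal values are no separate check.

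Under SPF housing 8 of the 10 genes could be measured, and Cdh1 and Ocln were below background on both arrays. All 8 read higher in KO-labelled than WT cells, and 2 of 8 reached 2-fold, against 5.61% of all genes, while 0 of 8 were at least 2-fold lower, against 6.61%. Lad1 differed by 2.57 ± 0.31 (5.92-fold), and Cldn4, with its WT value below background, by a measured 1.77 ± 0.40 (3.41-fold). The differences of Epcam (0.35 ± 0.21), Cldn3 (0.50 ± 0.44, with the WT value below background), Tjp3 (0.37 ± 0.21), Cldn23 (0.40 ± 0.41) and Cldn7 (0.14 ± 0.20) were within 2 scanner errors. Esrp1 differed by 0.75 ± 0.22, but by 0.16 ± 0.25 with its other probe. The median over the 8 was 0.45, against -0.06 over all genes. With normexp correction Lad1 (1.04) was the only 1 of the 8 at 2-fold, and Cldn4 read 0.31.

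Read higher in KO-labelled cells under both housings were all 8 genes measured in both, as were 16.7% of all genes. The genotype difference under GF housing minus that under SPF housing was -1.39 ± 0.37 for Lad1 and -1.26 ± 0.45 for Cldn4, the 2 genes whose genotype difference was wider under SPF housing among those measured in both. For Cldn4 the WT SPF value behind it was below background. These values moved with the background correction: with normexp correction they were -0.17 for Lad1 and 0.13 for Cldn4, so that the direction for Cldn4 turned. For the other 6 of the 8 it ran between 0.10 (Cldn23) and 0.51 (Cldn7). With 1 array per group this difference was not tested.

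Within this shared order the 10 genes differed mostly in how far the SPF arrays lay below the GF arrays. Over the 4 arrays, with each gene's values centred on its mean, Epcam and Cldn23 (Euclidean distance 0.34 in log2 units) and Cldn7 and Tjp3 (0.35) were the closest pairs among the 6 genes above background throughout. Cldn23 lay near background on the SPF arrays. With normexp correction its GF minus SPF differences were 2.73 in KO-labelled and 2.43 in WT cells, against 4.52 and 4.19 for Epcam. The likeness of Epcam and Cldn23 thus depends on the background correction. Epcam and Cldn7, whose proteins bind each other, lay 2.80 apart, with the smaller housing differences in Cldn7. The widest pair was Cldn3 and Lad1, at 4.27, with 1 Cldn3 value below background. Among 12884 genes above background on all 4 arrays, those most like Epcam were Perp (0.29), a membrane protein of desmosomes, Cldn23, Lurap1l (0.36), Prom1 (0.43), a protein of apical membrane protrusions, and Car2 (0.45), a carbonic anhydrase. Perp read 4.70, 3.89, -0.95 and -1.12 on the KO GF, WT GF, KO SPF and WT SPF arrays. Those most like Cdh1, whose SPF values were below background, were Epb41l4b (0.15), the gasdermin gene Gsdmc (0.23), Slc35g1 (0.24), the transmembrane mucin gene Muc13 (0.38) and Ddc (0.40), which encodes aromatic amino acid decarboxylase. In that ranking by likeness to Epcam, Esrp1 stood at place 132, Tjp3 at 186, Cldn7 at 241 and Lad1 at 487.

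Other genes of epithelial junctions were examined in a list of 66, all found on the arrays. That list also holds epithelial splicing and transcription factors, repressors of epithelial genes and partners of EpCAM. Between housings, 40 of the 63 measured were at least 2-fold higher and 3 lower in GF than SPF KO-labelled cells, and 36 of 63 were higher and 4 lower in GF than SPF WT cells. Over all genes 21.6% were higher and 15.4% lower in KO-labelled cells, and 17.5% and 9.44% in WT cells. With normexp correction 30 of the 63 were higher in KO-labelled and 29 in WT cells. The order of the 4 arrays shared by the 10 genes was held by 21 of the 66, against 9.38% of all named genes above background on any array. Among tight junction genes 13 of 19 were higher in GF cells in each genotype. Cgn, the junction plaque protein cingulin, was 5.51 higher in KO-labelled cells, Cxadr, an adhesion receptor, was 4.16 higher in KO-labelled and 3.63 higher in WT cells, and Marveld3, a relative of occludin, was 4.09 higher in WT cells. Of desmosome and hemidesmosome genes 10 of 12 were higher in GF KO-labelled cells and 7 of 12 in GF WT cells. In each genotype 6 of the 12 were above background on both arrays, and of these 4 were higher in GF KO-labelled and 2 in GF WT cells. Dsp, the desmosomal linker desmoplakin, was 6.13 higher in GF KO-labelled cells, and Itgb4, the hemidesmosome integrin, was 3.42 higher in KO-labelled and 2.33 higher in WT cells. Of the genes listed under adherens junctions, 7 of 12 were higher and 2 lower in GF KO-labelled cells (median 1.51). In GF WT cells 8 were higher and 1 lower (median 1.36). The largest differences among those above background on both arrays were of Cdhr5 (7.91 in KO-labelled and 6.27 in WT cells) and Cdhr2 (5.86 and 5.01). These are protocadherins counted in this list that link the microvilli of the brush border. The list was not of one direction. The 3 lower in GF KO-labelled cells were Nectin1 (-2.02), an adhesion molecule also known from neurons, Cd9 (-1.45), a tetraspanin that dendritic cells also carry, and Nectin4, which was not above background on the KO GF array (at least 1.72-fold lower). The 4 lower in GF WT cells were Grhl1 (-1.94), Nectin4 (-1.28), Cgnl1 (-1.08) and Col17a1, a collagen of hemidesmosomes that was not above background on the WT GF array (at least 1.45-fold lower).

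Between genotypes under GF housing, 20 of the 63 measured genes of that list were at least 2-fold higher in KO-labelled cells and 1 was lower, against 8.8% and 7.77% of all genes. The higher count was 31 with the deposited table, 22 with quantile scaling and 12 with normexp correction. Cldn5, a claudin of endothelium, was the lower one at -1.73, while Cgn (1.53), Evpl (1.51), the desmosomal plaque protein envoplakin, Cldn8 (1.43) and Dsg2 (1.39), a desmosomal cadherin, were among the highest. Under SPF housing 9 of 54 were higher and 5 lower, against 5.61% and 6.61% of all genes, with a median of 0.07 that changed sign with the deposited table. With normexp correction 1 was higher and 0 lower. Cldn12 (2.22) and Nectin1 (1.92) were higher in KO-labelled SPF cells.

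Of the 7 epithelial splicing and transcription factors in that list, 4 were at least 2-fold higher and 0 lower in GF than SPF KO-labelled cells (median 1.78), and 3 were higher and 1, Grhl1, lower in GF than SPF WT cells (median 0.68). Elf3 was 4.80 higher in GF than SPF KO-labelled cells and 4.96 higher in GF than SPF WT cells, Klf5 4.15 and 2.88 higher, and Grhl2, an activator of Cdh1 and claudin genes, 4.08 and 2.99 higher. Esrp2, the relative of Esrp1, was 1.84 higher in KO-labelled than WT GF cells. Of the 5 repressors of epithelial genes, Snai1 and Twist1 were below background on all 4 arrays. Zeb1 read 0.52, 0.50, 0.48 and 0.42 and Zeb2 3.85, 4.39, 4.69 and 4.81 on the KO GF, WT GF, KO SPF and WT SPF arrays, so that neither differed by 2-fold between any compared pair. Snai2 was 1.26 higher in GF than SPF KO-labelled cells and 1.02 lower in KO-labelled than WT SPF cells. Of the 7 partners of EpCAM, 3 were at least 2-fold higher and 1 lower in GF than SPF KO-labelled cells (median 0.45). In WT cells 3 were higher and 0 lower (median -0.14), so that the list as a whole did not follow the junction genes. The 3 higher ones were the protease St14, its inhibitor Spint2 and the tetraspanin Tspan8. GF minus SPF, St14 and Spint2 differed by 3.02 and 5.13 in KO-labelled and by 3.42 and 4.78 in WT cells, and Tspan8 by 4.63 and 4.93.

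**Figure D3:**
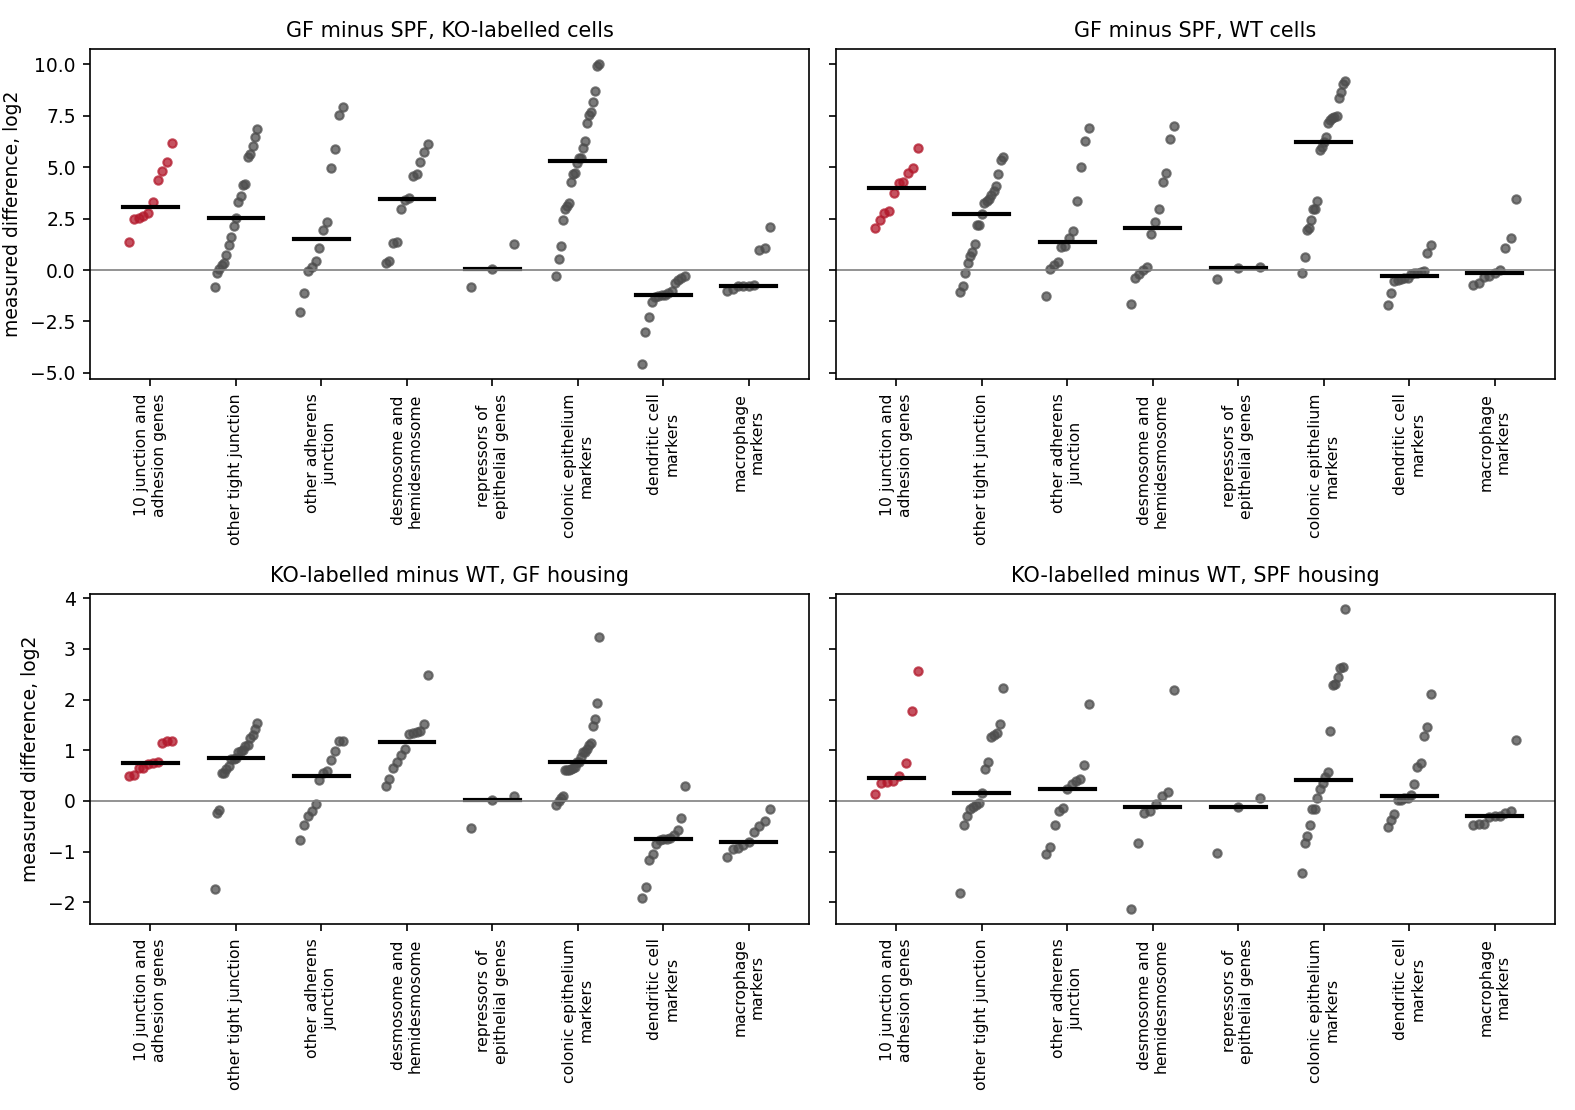
Measured log2 differences (vertical axes) of the 10 genes, of other junction genes, of repressors and of cell type markers in the 4 comparisons; each point is 1 gene and each bar the median of its list, with genes below background on 1 array shown at their measured value. The 10 genes and all colonic epithelium markers but Pigr, whose small differences change sign with the choice of probes, lie above 0 in both housing comparisons, while the medians of the dendritic cell markers are negative there.

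Markers of colonic epithelium that are not junction genes moved with the 10 genes. All 22 were above background on the KO GF array, 21 on the WT GF array, 17 on the KO SPF array and 14 on the WT SPF array. Their summed level, in multiples of each array's 75th percentile, was 963 on the KO GF array, 629 on the WT GF array, 81.2 on the KO SPF array and 74.6 on the WT SPF array. At least 2-fold higher in GF than SPF cells were 20 of the 22 in KO-labelled and 19 of the 21 measured in WT cells, against 21.6% and 17.5% of all genes. For the 10 genes the sums were 67.8, 41.9, 5.86 and 4.40 in the same order of arrays. The median GF minus SPF difference of the markers was 5.32 in KO-labelled and 6.21 in WT cells, against 3.04 and 3.97 for the 10 genes. KO-labelled minus WT, the medians were 0.77 for the markers and 0.74 for the 10 genes under GF housing, and 0.41 and 0.45 under SPF housing. A sum is weighted to its brightest probes, and Pigr, the receptor that carries IgA across the epithelium, read 5.73, 5.81, 6.02 and 5.96 on the KO GF, WT GF, KO SPF and WT SPF arrays. By this probe, its brightest, Pigr thus lay close together on all 4 arrays. It made up at most 8.89% of the markers' sum on a GF array but 79.8% and 83.7% on the KO SPF and WT SPF arrays. With the mean of all probes, Pigr read higher in GF than SPF cells in both genotypes. In that setting 21 of the 21 markers measured in WT cells were at least 2-fold higher in GF cells, so the flat values of Pigr rest on 1 probe. GF over SPF, the sum of the 10 genes was 11.6-fold in KO-labelled and 9.51-fold in WT cells. That of the markers was 11.9-fold and 8.43-fold with Pigr, and 55.4-fold and 47.0-fold without it, a comparison added after seeing the data. KO-labelled over WT, the sum of the 10 genes was 1.62-fold under GF and 1.33-fold under SPF housing. That of the markers was 1.53-fold and 1.09-fold with Pigr, and 1.59-fold and 1.35-fold without it.

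Single epithelial markers spread more widely. Car1, a carbonic anhydrase of colonocytes, was 1022-fold higher in GF than SPF KO-labelled cells and 178-fold higher in GF than SPF WT cells, and Lypd8, a colonocyte protein that binds flagella, 207-fold and 523-fold higher. Not above background on either SPF array were Cdx2, Slc26a3, Phgr1 and Lgr5, nor were Krt20 on the KO SPF array and Krt8, Cdx1, Chga and Hnf4a on the WT SPF array. Under SPF housing, where Lad1 and Cldn4 were higher in KO-labelled cells, so were Lypd8 (2.30), Krt19 (2.29), an epithelial keratin, and Lgals4 (1.39), a galectin of enterocytes, while Car1 was 1.42 lower. Under GF housing Chga (3.22), the granule protein of enteroendocrine cells, Muc2 (1.93), the goblet cell mucin, and Cdx2 (1.62) were higher in KO-labelled cells. Of the 22 markers, 13 held the order of arrays that the 10 genes shared, against 9.38% of all named genes above background on any array.

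**Figure D4:**
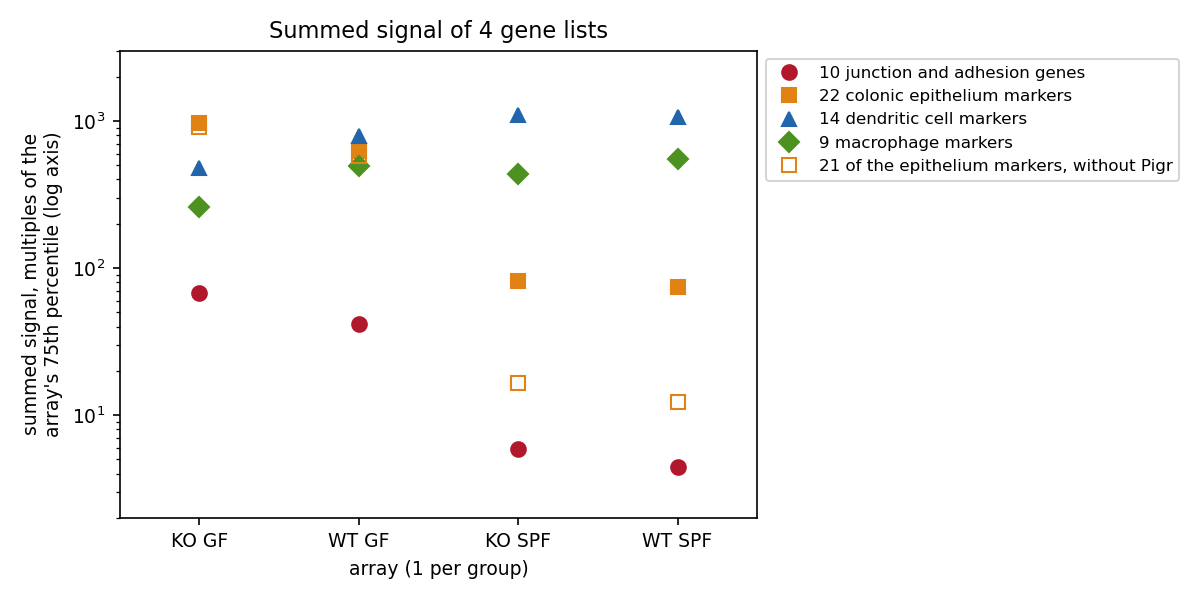
Summed signal of 4 gene lists, that of colonic epithelium also without Pigr (vertical axis, log scale, in multiples of the array's 75th percentile) on each array (horizontal axis, 1 array per group). The sums of the 10 junction and adhesion genes and of the 22 colonic epithelium markers are highest on the KO GF array, at 67.8 and 963, those of the markers without Pigr are 910, 573, 16.4 and 12.2 from left to right, and the sum of the 14 dendritic cell markers is lowest there, at 478.

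Markers of dendritic cells lay the other way between housings in KO-labelled cells, with 10 of the 14 found at least 2-fold lower and 0 higher in GF than SPF cells, against 15.4% and 21.6% of all genes. That count was 4 of 14 with the deposited table and 6 of 14 with quantile scaling and with normexp correction, and the median of -1.22 became -0.88, -0.77 and -0.94 in that order. In WT cells 2 of 14 were lower and 1 higher in GF than SPF cells, near the 9.44% and 17.5% of all genes, with a median of -0.28. Under GF housing 4 of 13 were lower in KO-labelled than WT cells, against 7.77% of all genes, or 2 with the deposited table and 3 with quantile scaling or normexp correction. Under SPF housing 3 of 14 were higher in KO-labelled cells, against 5.61% of all genes, or 1 with normexp correction. Their sum was 478 on the KO GF array, 791 on the WT GF array, 1089 on the KO SPF array and 1056 on the WT SPF array. Itgax, the dendritic cell integrin CD11c, read 2.15, 3.19, 4.44 and 4.32 in that order of arrays, the MHC class II gene H2-Ab1 7.24, 7.91, 8.47 and 8.41, and the growth factor receptor gene Flt3 -0.71, 0.14, 0.59 and 0.26. Not all markers were lowest on the KO GF array: Zbtb46, a transcription factor of conventional dendritic cells, read -1.26, -1.56, -0.06 and -1.51, and Irf4, another of their transcription factors, 1.30, 2.04, 1.59 and 0.83, so that Irf4 was 1.21 higher in GF than SPF WT cells. All 14 were above background on each SPF array and 13 on each GF array, Xcr1 being below background there. Cd207, the defining lectin of Langerhans cells, was not above background on either GF array, where Epcam and Cdh1 were highest, nor on the WT SPF array, and read -3.37 on the KO SPF array. Macrophage markers summed to 260, 490, 435 and 548 and B and plasma cell markers to 1.51, 2.18, 80.4 and 18.4 on the KO GF, WT GF, KO SPF and WT SPF arrays. In that order, T cell markers summed to 26.7, 40.1, 14.3 and 12.1, fibroblast markers to 23.2, 23.2, 12.1 and 19.2, and endothelial markers to 9.44, 16.0, 8.37 and 10.8. The T cell sum is carried mostly by Cd4, whose log2 levels were 4.47, 5.18, 3.38 and 3.30, while Cd8a was below background on all 4 arrays. The part of epithelial RNA, of dendritic cells and of any other cell in the signals of the 10 genes was not tested. In these pooled cells, more cells of a type and more RNA per cell cannot be told apart.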

How the data were processed

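Each of the 4 samples was labelled with Cy3 after whole-transcriptome amplification of total RNA, per the labels' protocols, and hybridised to a 1-colour Agilent mouse array. Per the file headers, the authors' scanner files were made with Feature Extraction 10.10.1.1 by protocol GE1_1010_Sep10 for a design on mm9, and hold a background-subtracted processed signal intensity per spot. The deposited value table holds linear intensity values without gene centring: its columns were the processed signal times 7.96 (KO GF), 7.08 (WT GF), 8.24 (KO SPF) and 8.30 (WT SPF), by a rule that stays unknown, with medians of 331.4, 235.7, 216.3 and 237.2.

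From these, log2 of the processed signal minus the array's 75th percentile was computed with Python 3.11.15. Control spots (3671 of 59305) and flagged spots (144 to 215 per array) were left out and spots of a probe averaged, leaving 55597 probes after 84 were dropped. Accessions in the files were matched without version to RefSeq transcripts, which named 27191 probes; 19 with conflicting names stayed unnamed. The probe with the highest mean stood for a gene. A gene was measured where it was above background on 1 array of the pair or more. Bounds take, for the dim array, the higher of its lowest signal above background and the probe's own. The calling of 2-fold differences was tested on simulated data with shifts well beyond 2-fold. Calls near 2-fold or near background were not tested that way.

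Named were the 10 genes, list genes above background on both arrays and at least 2-fold different (at most the 3 highest and 3 lowest per list and pair), label checks, and the 5 genes nearest to Epcam and to Cdh1; the rule's highest gene of a list was left out, since levels of different probes are not comparable. Zeb1, Zeb2, Snai1, Twist1 and the markers below background were named after their values were seen. The members, lists and rules were chosen with earlier results of these data known. Itgae, Cd68 and Trac were not matched. Alternatives were quantile scaling and normexp correction (offset 50) with limma 3.58.1 in R 4.3.3, the deposited table, the mean of all probes, genes above background on both arrays, and flagged spots kept. The number of arrays limits the precision.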

Additional observations from a re-analysis of the deposited data

How the results depend on the processing

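Each measured difference of the 10 genes kept its direction under each alternative run. This held in 46 of 46 values for KO minus WT under SPF housing and 60 of 60 under GF housing. For GF minus SPF it held in 56 of 56 in WT cells and 58 of 58 in KO-labelled cells. These values are not independent checks, and many could hardly turn. Requiring both arrays above background repeats the main values, as does the mean of all probes for genes with 1 probe. The deposited table shifts all genes of an array nearly alike. The genotype difference under GF minus that under SPF housing turned for Cldn4 (-1.26, and 0.13 with normexp correction). Sizes and counts moved. For KO minus WT under GF housing, where the median was 0.74 with 3 genes at 2-fold, quantile scaling gave a median of 1.01 with 6, the deposited table a median of 1.03 with 6 genes, and normexp correction 1 gene. Under SPF housing, the 2 genes became 1 with normexp correction and 1 where both arrays had to be above background, which leaves 6 genes measured. For GF minus SPF in WT cells, the median of 3.97 became 1.84 with normexp correction, and 2.81 with 6 genes called where both arrays had to be above background, since only 6 were. In KO-labelled cells the median of 3.04 became 3.38 with the deposited values, 2.39 with normexp correction and 3.44 with the mean of all probes. Over all genes, the median with the deposited table was 0.08, against -0.20, for KO minus WT under GF housing (2291 higher and 571 lower, against 1382 and 1220) and 0.39, against 0.05, for GF minus SPF in KO-labelled cells (4613 and 1501, against 3364 and 2400). For KO minus WT under SPF housing, 835 were higher and 983 lower, against 179 and 92 with normexp correction and 481 and 371 above background on both arrays. Apart from the genes below background, the cause was not tested. The normexp correction on mean signals was not run, since the files used here hold median signals, and the version on median signals was chosen after seeing the data. No paired analysis was possible because each group has 1 array, so that no replicate could be left out either. Signals on the SPF arrays near background limit Cdh1, Ocln, Cldn3, Cldn4 and Cldn23, and on the WT SPF array Lad1.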
